A study of Homo sapiens with 5 samples.

Results

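Ribosome footprints on 4 genes of the pluripotency network, ZFP42, KLF4, SOX2 and TDGF1, were followed in METTL18 knockout and wild-type HAP1 cells. They are 4 of the 14042 gene symbols in the count table, each taken from 1 transcript row, and all 4 passed the low-count filter, ZFP42 through the knockout libraries alone. They were chosen by their footprint counts in these same knockout and wild-type libraries, so their values are a description and carry no p-value. The study asks what METTL18, a methyltransferase that modifies a histidine of the ribosomal protein RPL3, does in human cells. The labels give 3 METTL18 knockout and 2 wild-type libraries, with no treatment or time point. They do not say whether the knockout is a single clone, nor whether the libraries are separate cultures, so a p-value here speaks for the scatter among libraries alone, and that scatter may be technical. HAP1 is an established near-haploid human line derived from a chronic myeloid leukaemia. Footprints are the RNA fragments that ribosomes shield from nuclease, so a count depends both on how much of an mRNA there is and on how densely it is translated. Neither could be taken apart from the other, nor could fewer expressing cells from less RNA per cell, since each library is a bulk sample.

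Pluripotency is the state of early embryo cells and embryonic stem cells that can form every tissue of the body. It is held by transcription factors that bind many of the same enhancers, with POU5F1 (OCT4), SOX2 and NANOG at the core. SOX2 is an HMG-box factor that binds DNA together with POU5F1 and also acts in neural progenitors. KLF4 is a zinc finger factor that, with POU5F1, SOX2 and MYC, reprograms somatic cells, and it is also known from epithelia. ZFP42 (REX1) is a zinc finger protein of the YY1 family and a marker of undifferentiated stem cells. TDGF1 (CRIPTO) is a membrane-anchored protein of the EGF-CFC family and a co-receptor of NODAL, the ligand that signals through activin receptors and SMAD2 and SMAD3.

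Library totals were 16339574 to 17629199 counts in the knockout and 4887380 and 5302160 in the wild type. The mean depth was thus 3.33-fold higher in the knockout, a difference that runs with the groups and cannot be told apart from them. Levels are CPM, counts per 1000000 of the library total after TMM scaling, and every fold change has the knockout on top. METTL18 itself had 33, 32 and 34 counts in the knockout libraries against 33 and 32 in the shallower wild-type ones. As levels these are 2.1 ± 0.117 CPM in the knockout (SD, n = 3) and 5.71 ± 0.211 CPM in the wild type (SD, n = 2), and every ± below has the same n. Its log2 fold change was -1.44 (SE 0.247, adjusted p = 2e-06, edgeR's quasi-likelihood test, adjusted by Benjamini-Hochberg, as for every adjusted p here). Most genes differed between the groups: of 11335 tested, 37.8% were called higher and 36.6% lower at an adjusted p under 0.05. With total counts in place of TMM the calls were 2982 higher and 5597 lower, against 4288 and 4143, because that scaling moved the median log2 fold change of all genes to -0.255, against 0.0161.

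The promoters of the 3 members that the RefSeq table holds are shown. The reason is that ZFP42 and KLF4 stood apart between the groups, while SOX2 did not after TMM scaling. Each line gives the 250 bases before the RefSeq start on the gene's strand (GRCh38.p14), and TDGF1 is named only. Capitals mark matches, on either strand, to the GC box GGGCGG, the CCAAT box CCAAT and the E-box CACGTG.
ZFP42, chr4:187995521-187995770, plus strand: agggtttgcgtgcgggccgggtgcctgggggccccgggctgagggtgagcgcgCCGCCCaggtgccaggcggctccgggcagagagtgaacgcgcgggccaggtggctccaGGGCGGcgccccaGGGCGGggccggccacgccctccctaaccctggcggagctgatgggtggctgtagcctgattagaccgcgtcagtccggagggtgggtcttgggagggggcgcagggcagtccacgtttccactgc
KLF4, chr9:107489770-107490019, minus strand: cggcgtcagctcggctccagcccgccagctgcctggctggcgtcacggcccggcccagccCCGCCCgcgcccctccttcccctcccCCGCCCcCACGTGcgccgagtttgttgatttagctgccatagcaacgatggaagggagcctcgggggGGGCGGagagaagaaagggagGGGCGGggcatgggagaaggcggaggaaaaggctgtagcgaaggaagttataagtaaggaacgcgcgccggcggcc
SOX2, chr3:181711675-181711924, plus strand: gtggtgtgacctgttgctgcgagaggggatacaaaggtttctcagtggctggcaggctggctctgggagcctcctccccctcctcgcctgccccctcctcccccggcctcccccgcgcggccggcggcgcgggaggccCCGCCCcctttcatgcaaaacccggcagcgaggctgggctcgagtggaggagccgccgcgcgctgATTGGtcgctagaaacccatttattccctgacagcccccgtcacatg
All 3 promoters were rich in G, C and CpG, the dinucleotide at which DNA is methylated. ZFP42 had 74.4% GC and 23 CpG, KLF4 69.2% and 25, and SOX2 68.8% and 20, where the median of 27305 genes was 11 CpG. Of all genes, 74.6% had fewer CpG than ZFP42, 78.7% fewer than KLF4 and 67.9% fewer than SOX2. The ZFP42 window holds 3 GC boxes, the KLF4 window 4 and the SOX2 window 1, and 42.3% of all promoters hold at least 1. KLF4 also has an E-box 157 bases before its start (6.49% of promoters hold 1), and SOX2 a CCAAT box 47 bases before its start (33.0%). The POU octamer ATGCAAAT, the SOX site CATTGT, the KLF site GGGTGTGG, TATAAA and the YY1 core CCATNTT were searched as well and have no match in these windows. Of all promoters, 1.66% hold the octamer, 9.45% the SOX site, 2.9% the KLF site, 11.1% TATAAA and 11.7% the YY1 core. No 2 matches overlap. These are matches of letters and not binding sites, and no methylation was measured.

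ZFP42 footprints were found in every knockout library and in no wild-type library. It held 2191, 2341 and 2181 counts in the knockout libraries (145, 144 and 138 CPM) and 0 counts in both wild-type libraries. No wild-type library came near a knockout one, and the knockout values lay close together, at 142 ± 3.42 CPM (SD, n = 3). A count of 0 over the wild-type group was given a floor of 3 counts, or 0.263 CPM, and against that floor the gene was at least 541-fold higher in the knockout. Such a floor allows for counting error only, and every "at least" given below for a count of 0 rests on one. The row is transcript ENST00000326866 (hg38 chromosome 4, 187995771 to 188005050, plus strand), whose coding sequence of 930 bases lies in 1 of its 4 exons. None of the 903 windows of 28 bases in this coding sequence, the length of a short footprint, occurred in a transcript of another GENCODE gene.

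KLF4 was present in both groups and about an order of magnitude higher in the knockout. Its knockout libraries held 4645, 4571 and 4577 counts (307, 281 and 290 CPM), and its wild-type libraries 202 and 172 counts (34.0 and 31.5 CPM). Every knockout value was several times every wild-type value. The means were 293 ± 13.1 CPM (SD, n = 3) in the knockout and 32.7 ± 1.8 CPM (SD, n = 2) in the wild type. The ratio was 8.91, with an exact 95% counting interval of 8.04 to 9.91 that covers counting error only, and the log2 fold change was 3.16 (SE 0.0701). KLF4 (transcript ENST00000374672, hg38 chromosome 9, 107484852 to 107489646, minus strand, 5 exons) shares 1 of 1410 windows with its pseudogene KLF4P1.

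TDGF1 was nearly absent from the wild type and low in the knockout. It had 259, 298 and 270 counts in the knockout libraries (17.1, 18.3 and 17.1 CPM), and 4 in each of the wild-type libraries (0.674 and 0.732 CPM). The groups did not overlap, and the knockout mean of 17.5 ± 0.688 CPM (SD, n = 3) stood against 0.703 ± 0.0412 CPM (SD, n = 2). With 8 wild-type counts in all, the ratio of 25.0 is loosely bounded, with an exact 95% counting interval of 12.6 to 58.1, and the log2 fold change was 4.62 (SE 0.271). TDGF1 (transcript ENST00000296145, hg38 chromosome 3, 46577237 to 46582463, plus strand, 6 exons) is the member whose reads are least certain. Only 28.3% of its 537 windows occurred in no other gene, the pseudogene TDGF1P3 holding more of the rest than any other gene, and LRRC2 overlaps it on the opposite strand and AC104304.1 on the same strand. The sources used here do not say how reads matching several places were counted.

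SOX2, the most abundant of the 4, did not separate the groups after TMM scaling. Its counts were 8525, 8609 and 8224 in the knockout and 3386 and 2925 in the wild type. After TMM scaling the levels were 563, 529 and 522 CPM in the knockout and 570 and 535 CPM in the wild type. These 2 sets of levels overlapped. As a share of all counts of a group, without TMM, SOX2 held 0.0498% in the knockout and 0.0619% in the wild type. The means were 538 ± 22 CPM (SD, n = 3) in the knockout and 553 ± 24.8 CPM (SD, n = 2) in the wild type, a difference of -14.8 CPM that is smaller than either SD, with a log2 fold change of -0.04 (SE 0.0429). Under total-count scaling that value was -0.31, which carries the shift of all genes given above. SOX2 (transcript ENST00000325404, hg38 chromosome 3, 181711924 to 181714436, plus strand) has a single exon of 951 coding bases that lies inside the long non-coding gene SOX2-OT on the same strand. In its coding sequence 88.3% of windows occurred in no other gene, and SOX1 was among those sharing the rest.

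**Figure D1:**
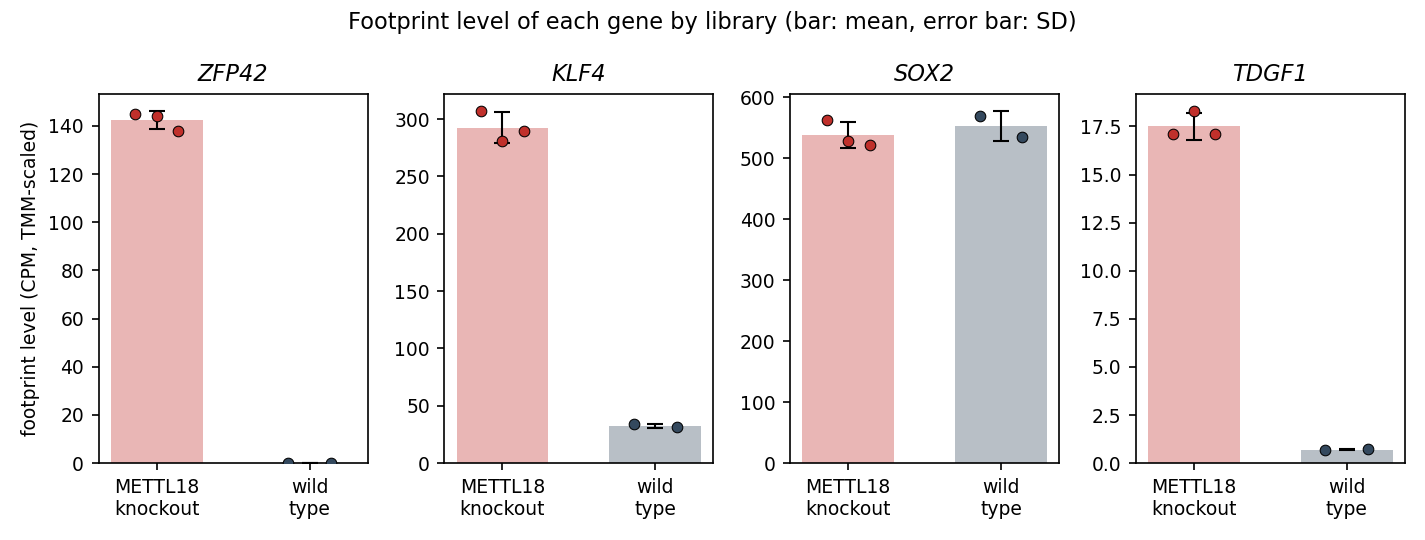
Footprint level (y axis, CPM after TMM scaling, starting at 0 with a scale of its own in each panel) of each gene in the METTL18 knockout (red, 3 libraries) and the wild type (dark blue, 2 libraries). Points are libraries, bars are means and error bars are SD. ZFP42, KLF4 and TDGF1 stand apart between the groups, while the knockout and wild-type points of SOX2 lie between 522 and 570 CPM and overlap.

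Of the 4 genes, 3 had every knockout library above every wild-type library, where 42.5% of all tested genes did. Because these genes were chosen for this contrast, nothing is read from that count. Per kilobase of coding sequence, the order in the knockout was SOX2 at 566 CPM, KLF4 at 204, ZFP42 at 153 and TDGF1 at 31.1. In the wild type it was SOX2 at 581 CPM per kilobase, KLF4 at 22.8, TDGF1 at 1.25 and ZFP42 at 0. Neighbours in this order did not overlap between libraries. The closest pair was KLF4, at 195 to 213 CPM per kilobase in the knockout libraries, and ZFP42, at 149 to 156. Placed among all tested genes by level per kilobase, SOX2 lay at percentile 96.7 in the knockout and 97.6 in the wild type, KLF4 at 91.5 and 59.7, and TDGF1 at 65.7 and 10.6. ZFP42 lay at percentile 88.9 in the knockout.

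Relative to each other the genes were steady within a group. SOX2 exceeded KLF4 by 2.72- to 2.85-fold per kilobase in the 3 knockout libraries and by 25.3- and 25.7-fold in the wild-type libraries. KLF4 exceeded TDGF1 by 6.02- to 7.04-fold in the knockout and by 16.9- and 19.8-fold in the wild type. The CPM of the 4 genes summed to 1030, 972 and 968 in the knockout libraries and to 605 and 567 in the wild-type libraries. SOX2 made up 53.9% to 54.6% of that sum in the knockout and 94.3% in each wild-type library, and KLF4 28.9% to 30.0% against 5.55% and 5.62%. The rest of the knockout sum was ZFP42, at 14% to 14.8%, and TDGF1, at 1.66% to 1.88%.

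**Figure D2:**
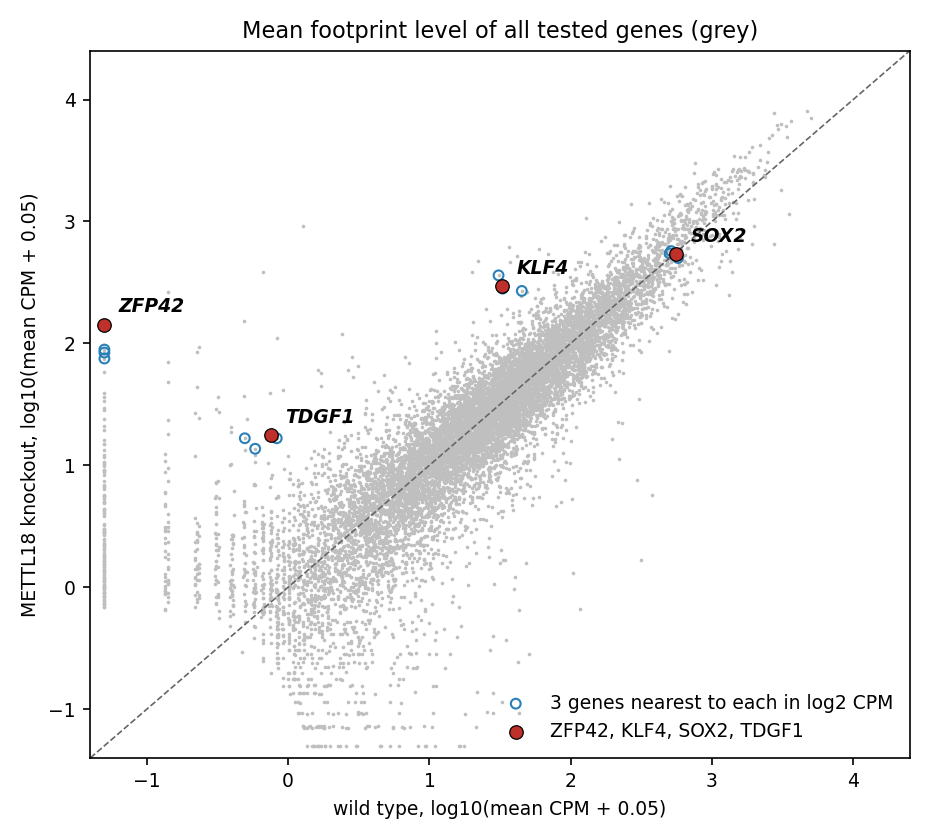
Mean level of each tested gene (grey points) in the wild type (x axis) and in the METTL18 knockout (y axis), both as log10 of mean CPM plus 0.05, with the line of equal levels dashed. ZFP42 sits at the left edge, where wild-type counts are 0, KLF4 and TDGF1 lie above the line, and SOX2 lies on it near the top. Open circles are the 3 genes nearest to each of the 4.

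The 3 genes whose log2 CPM lay nearest to each of the 4, by Euclidean distance over the 5 libraries, show what else has such a profile. Nearest to ZFP42 were MEIOB, a meiotic recombination protein (distance 1.19), DNMT3L, which assists DNA methylation in germ cells (1.34), and OLFML3 (1.6), all with 0 wild-type counts. Nearest to KLF4 was ALPL (0.18), the alkaline phosphatase used to stain pluripotent cells, at 281 ± 14.2 CPM in the knockout and 32.9 ± 1.56 CPM in the wild type, followed by the neuronal tubulin TUBB3 (0.55) and the scaffold protein IQGAP2 (0.69). TDGF1 was nearest to the mitotic checkpoint ligase CHFR (0.67), the sulfotransferase CHST2 (0.82) and the tight-junction protein CLDN7 (0.98), each with 9 wild-type counts or fewer. SOX2 was nearest to the RNA-binding protein HDLBP (0.21), the glutamine transporter SLC1A5 (0.24) and the protein disulfide isomerase P4HB (0.25), which are abundant in both groups. With 5 libraries in 2 groups, such a distance mostly reflects the group means.

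Other genes of the pluripotency network mostly rose. The list of 46 further genes held 41 that were measured and 31 that were tested, and of these 24 rose, 6 fell and 1 did not pass, beside 37.8% called higher and 36.6% lower over all genes. The median log2 fold change of the tested genes was 1.5, or 1.46 with the genes at 0 in the wild type set to their lower bound, against 0.0161 over all genes. Of the 24 that rose, 5 had 0 wild-type counts and could pass the low-count filter only through the knockout. MYCN (1 and 2 wild-type counts), SUSD2 (3 and 1), L1TD1 (2 and 6) and DPPA2 (7 and 2) also needed the knockout libraries to pass it. When a mean CPM of at least 10 was required, 17 of the list were tested, of which 14 rose and 3 fell. The list was drawn up with earlier results of these data known.

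The genes of the network that rose hold several roles. LIN28A, an RNA-binding protein that blocks let-7 maturation, had 281, 297 and 346 counts in the knockout and 0 in both wild-type libraries, at least 74.5-fold more, and its paralogue LIN28B rose by 2.80 on the log2 scale (adjusted p = 1.35e-20). TRIM71, a ubiquitin ligase of the same let-7 circuit, had 456, 459 and 468 counts in the knockout, against 19 and 21 in the wild type (29.3 ± 1.0 against 3.52 ± 0.454 CPM, log2 fold change 3.06). DNMT3L, with 63.3% of its windows in no other gene, was at least 319-fold higher, and the de novo methyltransferase DNMT3B rose by 1.46. L1TD1, an RNA-binding protein of stem cells, rose by 3.54, DPPA2 by 2.74 and its partner DPPA4 by 0.84. MYCN had 346 counts over the knockout libraries and 3 over the wild-type libraries, and its CPM ratio was 27.9 (95% counting interval 9.46 to 136).

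Among factors that act beside these 4, MYC, the fourth reprogramming factor, stood at 546 ± 22.3 CPM in the knockout and 272 ± 5.4 CPM in the wild type (log2 fold change 1.01, adjusted p = 1.3e-22). OTX2, a factor of primed pluripotency and of the anterior brain, rose by 1.86, SALL1 by 1.5, UTF1 by 1.10, TBX3 by 0.86, KLF5 by 0.75 and TRIM28, the corepressor of KRAB zinc finger proteins, by 0.98. TERT, the telomerase reverse transcriptase, rose by 2.10, SUSD2, a surface marker of naive cells, by 2.76 and NR6A1 by 1.76. ZIC2 rose by 0.50 (adjusted p = 0.019), a call that was lost without wild type replicate 1 (0.31), with DESeq2 (0.50) and with total-count scaling (0.23). The genes that fell were KLF2 (-2.53), FOXD3 (-1.98), POU3F1 (-1.55), TFCP2L1 (-0.76), NR5A2 (-0.56) and PODXL (-0.21). KLF2 and TFCP2L1 are factors of the naive state, whose surface marker SUSD2 rose, so the genes of that state did not share a direction. The PODXL call was lost without wild type replicate 2 (-0.14), without METTL18 knockout replicate 2 (-0.16) and with DESeq2. EPCAM had 1.59 ± 0.292 CPM in the knockout and 1.32 ± 0.201 CPM in the wild type (adjusted p = 0.558).

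Of the core factors, SOX2 is described above, and the rows of NANOG and POU5F1 had few counts. NANOG had 12, 22 and 12 counts in the knockout and 0 in both wild-type libraries, 0.968 ± 0.332 CPM and at least 3.68-fold higher. SALL4 had 11, 13 and 6 counts against 0 and 0, and FGF4, a target of SOX2 and POU5F1, 14, 5 and 16 against 0 and 0, which is at least 2.41-fold and 2.85-fold higher. The POU5F1 row had 0, 1 and 1 counts in the knockout and 0 and 0 in the wild type and was not tested. These rows are uncertain: 9.7% of NANOG windows and 13.3% of the windows in the longest annotated POU5F1 coding sequence occurred in no other gene, and the transcript of the POU5F1 row (ENST00000434616) is not in the primary assembly annotation of GENCODE 29. The row of POU5F1B, a retrocopy that shares windows with POU5F1 and was singled out after its values were seen, had 44, 38 and 25 counts in the knockout and 8 and 6 in the wild type. So the level of POU5F1 cannot be read from these rows.

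**Figure D3:**
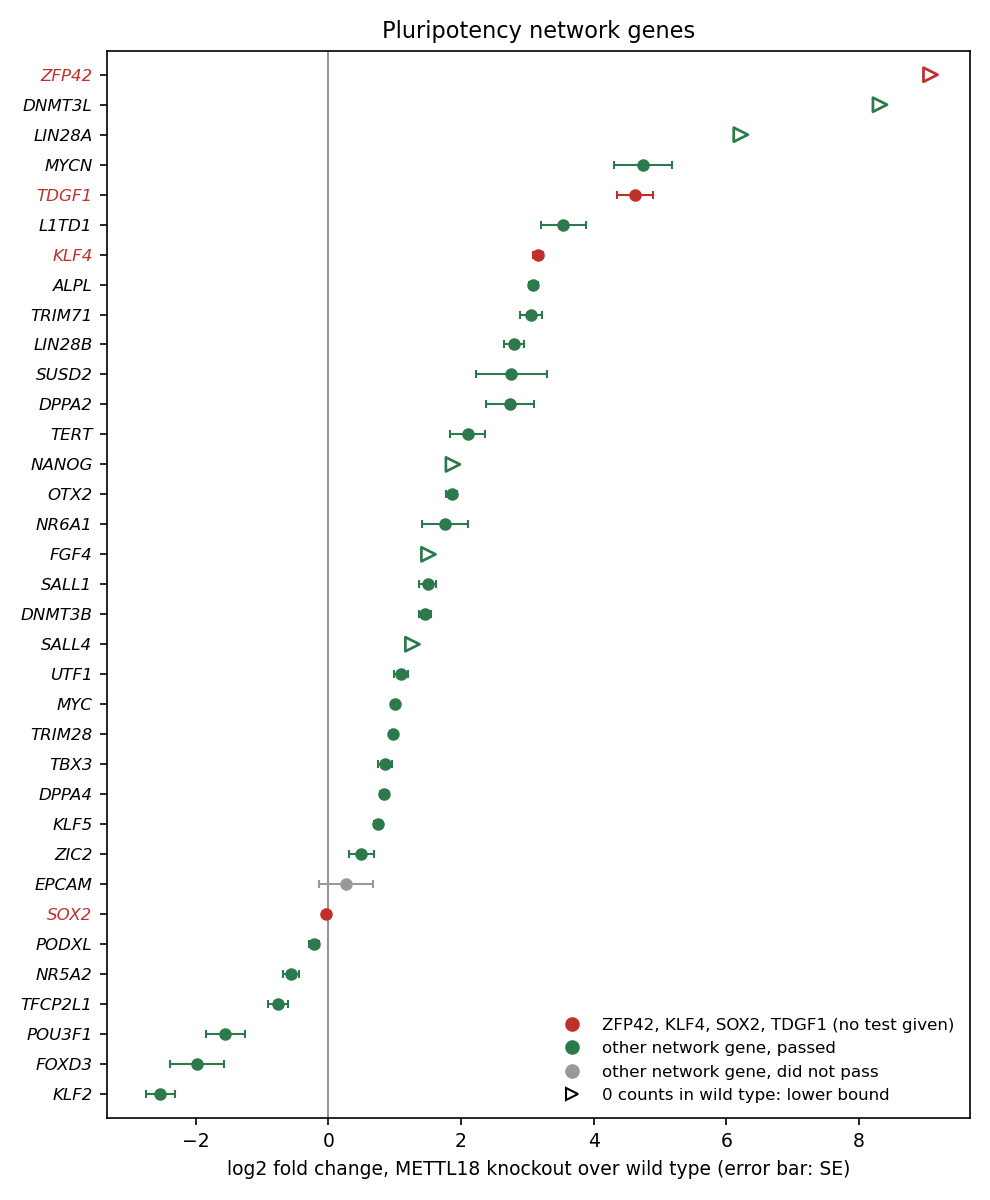
Log2 fold change of knockout over wild type (x axis) for ZFP42, KLF4, SOX2 and TDGF1 (red) and the 31 other tested genes of the network (green passed, grey did not). Points carry SE bars, and open triangles are lower bounds for genes with 0 wild-type counts. SOX2 sits at -0.04 beside EPCAM and PODXL, below the 24 network genes that rose, while ZFP42 has the highest bound.

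The families of the 4 genes are given as counts, which stand beside the 37.8% called higher and 36.6% called lower over all genes, and no difference between families was tested. Of 11 other SOX genes tested, 2 rose, 3 fell and 6 did not pass, with a median log2 fold change of 0.0143. SOX5 rose (0.52, adjusted p = 0.000262), a call lost with total-count scaling (0.25), and SOX18 (-2.36), SOX6 (-1.14) and SOX7 (-0.81), factors of vessels, cartilage and endoderm, fell. SOX2 had the highest level per kilobase of the 15 measured SOX genes in both groups, at 566 CPM in the knockout and 581 CPM in the wild type, followed by SOX4 at 60.2 and 50.3. Total-count scaling left 0 SOX genes called higher and 5 lower.

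Of 16 other KLF and SP genes tested, beside the same 37.8% and 36.6% over all genes, 10 rose, 4 fell and 2 did not pass, with a median of 0.47. KLF3, a repressor, rose by 2.01 (adjusted p = 4.03e-23) and stood at 98.6 ± 7.58 CPM in the knockout and 24.5 ± 2.06 CPM in the wild type, SP1 rose by 0.51, and KLF2 fell. By level per kilobase KLF4 ranked 1 of the 24 measured genes of this family in the knockout and 7 in the wild type, where SP1 (59.6 CPM), KLF5 (42.5) and SP3 (42.3) led. Of 9 tested genes of the YY1 family and its Polycomb partners, 8 rose and 1 did not pass, where 37.8% of all genes were called higher, with a median of 0.54. MGA (0.78), PCGF6 (0.87), RNF2 (0.54) and INO80 (0.50) were among those that rose. Per kilobase, ZFP42 exceeded YY1 in the knockout, at 153 against 117 CPM, while the wild type had YY1 at 101 CPM and ZFP42 at 0. Of 6 tested POU genes, 1 rose (POU2F1, 0.84), 1 fell (POU3F1) and 4 did not pass, with a median of 0.24.

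In the pathway in which TDGF1 acts, NODAL and activin signalling, 7 of 21 tested genes rose, 7 fell and 7 did not pass. Over all genes 37.8% were called higher and 36.6% lower, so these shares lie near the background. The median log2 fold change was -0.0432. The receptor ACVR2B rose (0.95, adjusted p = 9.4e-07), as did SKIL, a repressor of SMADs (0.65), and the convertase PCSK6, which processes NODAL, fell (-1.10, adjusted p = 2e-10). NODAL itself had 0, 0 and 1 counts in the knockout and 1 and 1 in the wild type, with 33.6% of its windows in no other gene, and GDF3, a related ligand, 1, 1 and 0 against 0 and 0. With total-count scaling 4 genes of this pathway were higher and 12 lower. Of 22 tested genes of LIF, STAT3 and FGF signalling, which sustain pluripotent cells in culture, 10 rose, 10 fell and 2 did not pass, which is also near the 37.8% and 36.6% over all genes. Their median was 0.21. The LIF receptor LIFR (-1.32), JAK1 (-1.23), JAK2 (-2.22) and FGFR1 (-1.14) were those with the smallest adjusted p, and all 4 fell.

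**Figure D4:**
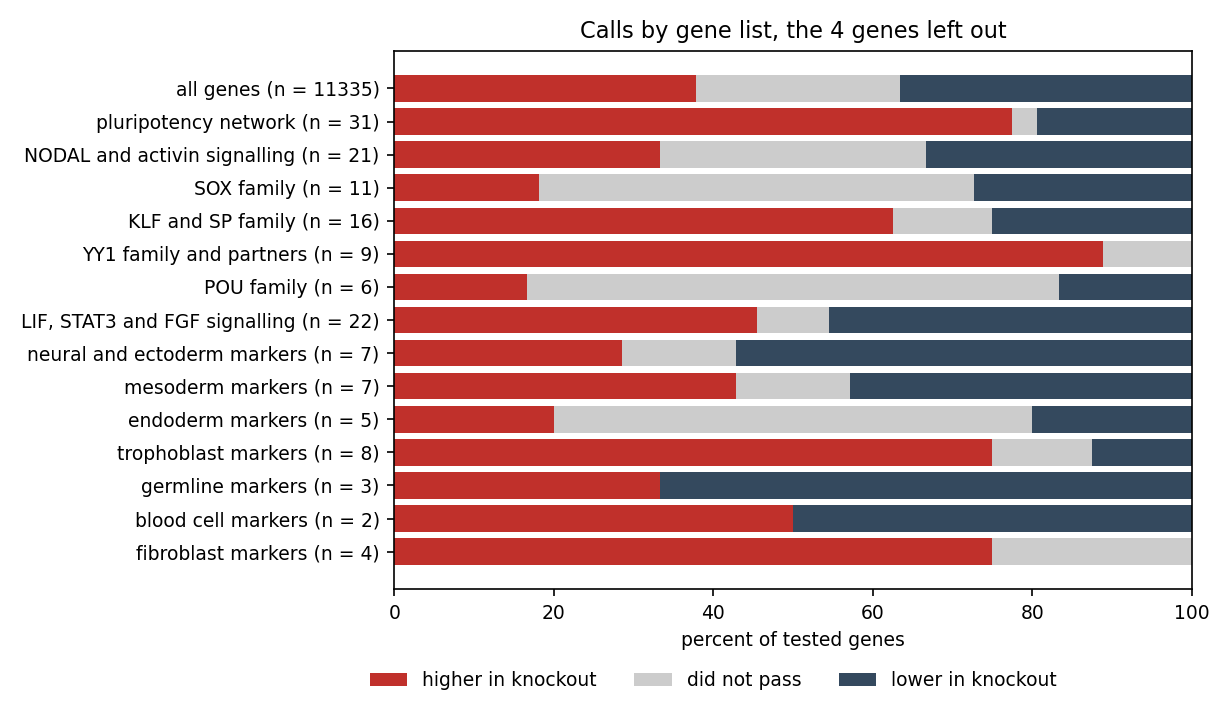
Share of tested genes in each list (x axis, percent) that was called higher (red), did not pass (grey) or was called lower (dark blue) in the knockout, with the number tested in brackets and all genes on top. The pluripotency network has 24 of 31 genes higher, against 37.8% of all genes, and the SOX family has 2 of 11.

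Markers of other cell types moved with the groups as well, and their part in the values of the 4 genes was not tested. Their counts, too, stand beside the 37.8% called higher and 36.6% lower over all genes. The sum of the 8 measured of 12 fibroblast markers was 1080 to 1130 CPM in the knockout and 142 to 161 CPM in the wild type, nearly all of it the intermediate filament VIM at 1070 ± 24.4 against 129 ± 12.3 CPM. Among its matrix genes, COL1A1 stood at 22.7 ± 1.66 CPM in the knockout and 16.7 ± 1.23 CPM in the wild type (log2 fold change 0.45, a call lost with total-count scaling at 0.17). COL3A1 had 32, 33 and 26 counts in the knockout and 1 and 0 in the wild type, COL1A2 had 6, 6 and 0 against 0 and 1, and POSTN 2, 2 and 2 against 0 and 0. Of the 4 tested, 3 rose and 0 fell, or 1 fell without METTL18 knockout replicate 1. The 11 measured of 12 neural and ectoderm markers summed to 653 to 679 CPM in the knockout and 121 to 130 CPM in the wild type through TUBB3 (log2 fold change 3.55) and NES (1.98), while MAP2 (-3.91) and NCAM1 (-5.94) fell. Of the 7 tested, 2 rose and 4 fell. PAX6 had 2, 6 and 5 counts in the knockout and 11 and 16 in the wild type. The 10 measured of 12 trophoblast markers summed to 325 to 334 CPM in the knockout and 225 to 226 CPM in the wild type. There TFAP2C (1.37), GATA2 (1.87) and TFAP2A (1.29) rose, CDX2 fell (-3.63), and 6 of 8 tested rose in all.

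Mesoderm and endoderm markers had low sums in both groups. The 10 measured of 12 mesoderm markers summed to 51.9 to 55.5 CPM in the knockout and 51.0 to 52.7 CPM in the wild type, with 3 of 7 tested higher and 3 lower. Without wild type replicate 1, or without wild type replicate 2, 1 was higher. The 8 measured of 12 endoderm markers summed to 17.9 to 19.3 CPM in the knockout and 14.3 to 19.4 CPM in the wild type, with 1 of 5 tested higher and 1 lower. The lower one, GATA4, had 0 counts in the knockout and 12 and 22 in the wild type, at least 47.5-fold lower, and without wild type replicate 2 the number lower was 0. The 8 measured of 12 germline markers summed to 56.5 to 61.0 CPM in the knockout and 32.7 to 36.4 CPM in the wild type, with 1 of 3 tested higher and 2 lower, or 1 lower without wild type replicate 2. Of the 20 blood cell markers, 8 were measured, at 54.5 to 64.4 CPM in the knockout and 23.6 to 26.1 CPM in the wild type, most of it GATA2 at 56.8 ± 5.07 against 15.5 ± 0.539 CPM. Of the 2 tested, GATA2 rose and TAL1 fell (-2.13). CD33 had no count in any library, and CD34 had 0 in the knockout and 2 and 2 in the wild type. These 2 genes were thus at or near 0 in both groups, unlike GATA2 and unlike TAL1 (1.92 ± 0.408 against 8.34 ± 2.49 CPM). The listed genes without a row were not measured.

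Genes that neighbour the 4 on the chromosome were examined because position played no part in the choice. Of 18 tested genes that start within 1 Mb, 11 rose, 2 fell and 5 did not pass, beside 37.8% and 36.6% over all genes. ZFP42 had 1 measured neighbour, TRIML2, a gene of the tripartite-motif family that starts 110 kb downstream on the opposite strand. TRIML2 had 426, 439 and 392 counts in the knockout (26.7 ± 1.65 CPM) against 2 and 0 in the wild type. The ratio was 152 (95% counting interval 42 to 1260). Both measured genes of this stretch were thus at or near 0 in the wild type and present in every knockout library. TRIML2, like ZFP42, passed the low-count filter through the knockout libraries alone, so it could be tested only because it was high there.

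Around the other 3 genes the neighbours changed by less. KLF4 had RAD23B, a DNA repair factor 206 kb downstream (0.40, adjusted p = 1.94e-11), and the zinc finger gene ZNF462, 627 kb downstream (0.41, adjusted p = 9.03e-07), whose call was lost with total-count scaling (0.14). SOX2 had 2 measured neighbours, both far upstream, of which FXR1, an RNA-binding protein whose start lies at -800 kb, rose by 1.23 (adjusted p = 1.59e-24) and DNAJC19 had a log2 fold change of -0.10 (adjusted p = 0.307). Around TDGF1, 13 genes were tested, of which 7 rose, 2 fell and 4 did not pass. KLHL18 (1.12), PTH1R (1.11), ELP6 (0.93) and CCDC12 (0.89) rose by the most and NBEAL2 (-1.24) and SCAP (-0.43) fell. ALS2CL, the nearest tested gene at 116 kb, had 1.6 ± 0.618 CPM in the knockout and 1.75 ± 0.145 CPM in the wild type (adjusted p = 0.761). The rises of LIMD1 (0.23), SETD2 (0.22) and PTPN23 (0.20) were lost without wild type replicate 2 (0.12, 0.15 and 0.0994). With total-count scaling they turned to -0.0382, -0.0561 and -0.0709. Those of LIMD1 and PTPN23 were also lost with DESeq2, with a mean CPM of at least 10 and with knockout counts thinned to wild-type depth. That of PTPN23 was lost with upper-quartile factors and without METTL18 knockout replicate 1 as well.

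**Figure D5:**
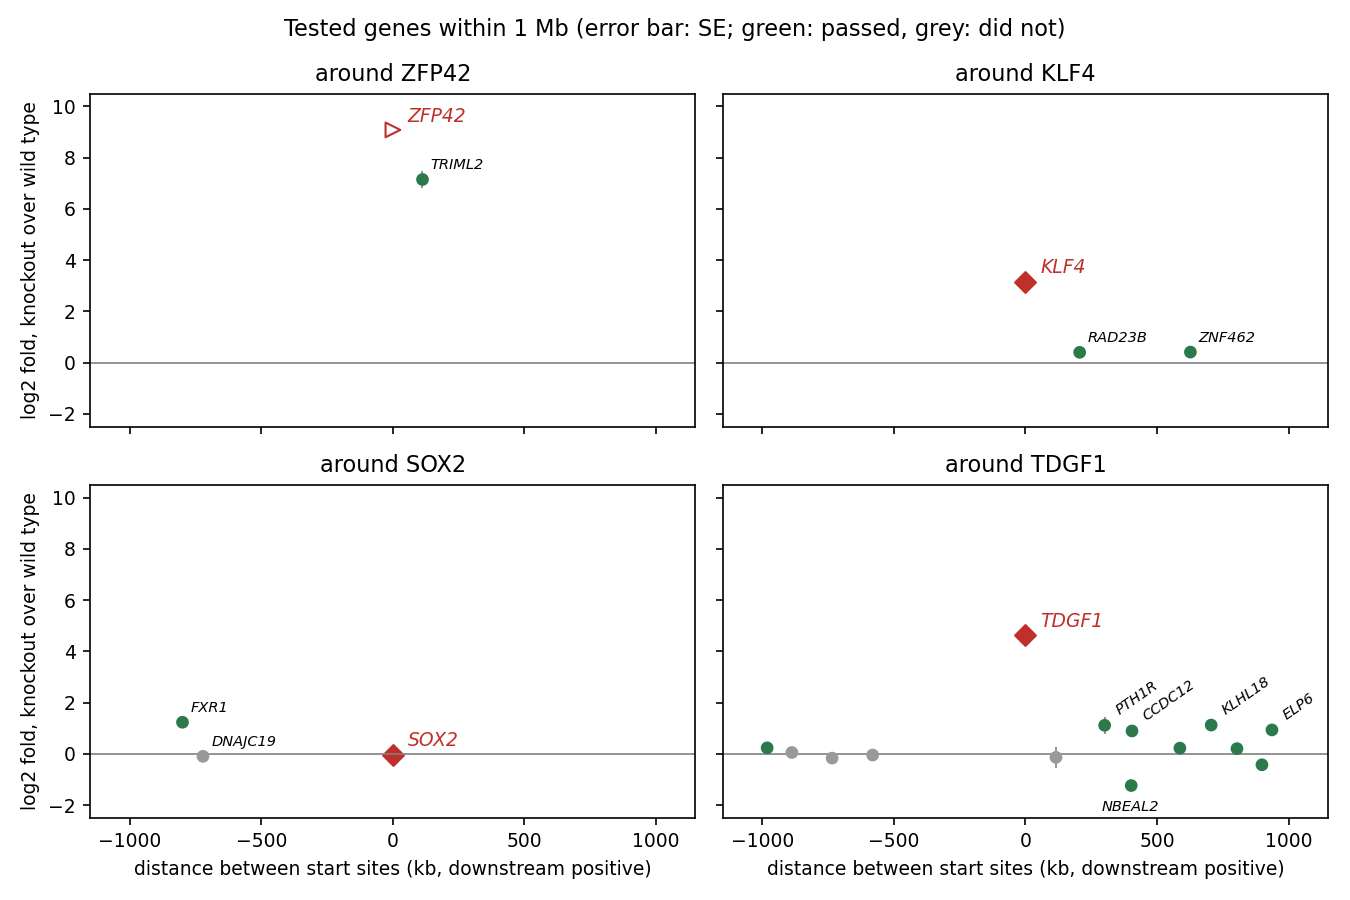
Log2 fold change of knockout over wild type (y axis) against distance between start sites in kb, positive downstream of the gene (x axis), for genes tested within 1 Mb of each of the 4, with SE bars. Red marks the gene itself, the open triangle being the lower bound of ZFP42. TRIML2, 110 kb from ZFP42, is far above 0, while the neighbours of KLF4, SOX2 and TDGF1 lie between -1.24 and 1.23.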

How the data were processed

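Ribosome footprints of 28 to 32 bases were sequenced from monosomes of lysates digested with RNase I in cycloheximide, per the labels' protocols. Bowtie and hg38 are named, per the submitters' processing notes. The sources used here do not state the counting tool, its annotation or what became of multiply matching and duplicate reads. The labels name the molecule polyA RNA, which differs from the footprints of their protocol. The authors deposited raw counts for 14084 transcript rows, of which 387 held no count. Where a symbol had several rows, as 39 did, the row with most counts stood for it. GENCODE 29, on the same build, matched 13968 rows (99.2%). RefSeq gave promoters.

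Libraries were grouped by labelled genotype. The test was edgeR's quasi-likelihood fit (version 4.0.16, robust, under R 4.3.3) after TMM scaling. Its model held genotype and nothing else. Rows were kept by filterByExpr (minimum count 10, minimum total 15). Benjamini-Hochberg adjustment ran over all rows kept, with a threshold of 0.05. The procedure was tested on simulated data in which few genes changed, in equal numbers up and down. That simulation cannot say how well the scaling holds where most genes differ, as here. A count of 0 over a group was given a floor of 3 counts. Alternatives were RLE, upper-quartile and total-count scaling, filtering off or set at mean CPM 10, DESeq2 1.42.0, voom in limma 3.58.1, thinning of knockout counts to wild-type depth, a block on replicate number and omission of each library. The 4 genes and the 14 lists were chosen with earlier results of these data known. Named were the 4 genes, METTL18, tested network genes, up to 4 genes of every other list by adjusted p, the 3 nearest by log2 CPM (prior count 2) and neighbours within 1 Mb. Some are given as counts, and 1 is not reported here. Closest family members by protein identity were not analysed here. Matched RNA-seq was not analysed here.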

Additional observations from a re-analysis of the deposited data

How the results depend on the processing

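Of 28 recomputed counts over the whole table, all stayed within 1.5-fold, at 2982 to 4507 genes higher and 3041 to 5597 lower. With each library left out in turn they were 3802 to 4180 higher and 3589 to 4104 lower. The pluripotency network kept 21 to 24 genes higher and 5 to 6 lower in those fits, and with a mean CPM of at least 10, which tests fewer genes, it had 14 higher and 3 lower. The log2 fold changes ranged over the 14 alternatives from 2.89 to 3.22 for KLF4, from 4.35 to 4.68 for TDGF1 and from -0.31 to 0.00583 for SOX2, the lowest of each coming from total-count scaling. The fitted value of ZFP42 depends on how a count of 0 is treated and is not given. Total-count scaling, which shifts all genes, turned SLC1A5 to -0.15, P4HB to -0.12, LIMD1 to -0.0382, SACM1L to -0.23, SETD2 to -0.0561 and PTPN23 to -0.0709. Among the values of single named genes, 30 lost their call, 11 gained one, 6 turned and 1329 did neither. Counts of the 14 lists, the network included, moved by more than 1.5-fold in 35 cases. The replicate number as a block gave 4322 genes higher and 4154 lower and kept 24 and 6 in the network. Of the neighbours it moved LZTFL1 past the threshold (-0.23, adjusted p = 0.0229). Same-numbered libraries did not deviate together (correlations of 0.00853 and 0.0231). With 2 wild-type libraries, whose deviations from their mean mirror each other, this cannot settle whether the numbers pair them. The wild-type depth limits TDGF1, with 8 counts there, and other genes with few counts.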
